A study of Drosophila melanogaster with 6 samples.

Results

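The nuclear genes for proteins of the mitochondrial ribosome were examined in adult heads of *Drosophila melanogaster* with and without the RNA-editing enzyme Adar. Members were the genes whose current FlyBase symbol starts with mRpL or mRpS. The table of gene IDs holds 73 such symbols, and 71 of them had a row among the 16641 genes counted. The other 2, *mRpS5* and *mRpS34*, carry newer IDs with no row and were not analysed here. All 71 reached 10 counts in at least 3 libraries and passed the filter on low counts, so every member with a row was tested, among 10201 genes in all. Of the 71, 49 belong to the large subunit and 22 to the small subunit. This count places *mRpS30* and *mRpS18A* in the large subunit, where their counterparts sit in mammalian structures.

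RNA was sequenced from 3 Adar5G1 libraries and 3 w1118 libraries. All flies were males aged 3 days and raised at 18 C. Adar5G1 is a loss-of-function allele of *Adar*, an X-linked gene, and its strain label also carries y and sc. The w1118 flies are labelled wild type and belong to a stock named for a mutation of *white*. Each genotype was 1 stock, so the allele, the markers and the rest of the background cannot be told apart. Whether replicate libraries derive from separate crosses or collections is not stated, so the p-values reflect the variation among 3 libraries per genotype and this may be technical. In whole heads, fewer cells of a type and less RNA per cell cannot be told apart.

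Mitochondria keep a small genome whose mRNAs encode core subunits of the respiratory chain and the ATP synthase, and they translate these on a ribosome of their own. The RNAs of that ribosome come from mitochondrial DNA, whereas its proteins are encoded in the nucleus, made in the cytoplasm and imported. Many of the proteins have a counterpart in bacterial ribosomes, and others were added during the evolution of mitochondria. Neurons and photoreceptors depend strongly on respiration, and mutations that weaken mitochondrial translation in flies are known to cause seizures after a mechanical shock.

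Libraries held 6872569 to 21639081 counts over genes. Rows of non-coding genes took 12.4% to 46.9% of them, and the scaling factors ranged from 0.764 to 1.25. Levels are given in CPM, the usual count unit scaled to library size. *Adar* had 0.476 ± 0.392 CPM in Adar5G1 heads and 318 ± 32.2 CPM in w1118 heads (SD, n = 3 each), so every library matched its label. Marker genes of other cell types also moved. In summed CPM, fat body markers ranged from 4228 to 5280 in Adar5G1 heads and from 2329 to 3724 in w1118 heads, with 2 of 3 tested called higher by edgeR. Nearly all of that sum was *apolpp*, at 4201 to 5170 CPM in Adar5G1 heads and 2314 to 3647 CPM in w1118 heads. The other one called, *Fbp1*, had 18 to 23 counts per Adar5G1 library and 2 in each w1118 library. Photoreceptor markers ranged from 13970 to 16000 in Adar5G1 heads and from 17597 to 18751 in w1118 heads, with 1 of 4 called lower by edgeR. All 4 estimates were below 0, 3 had an unadjusted p below 0.05, and DESeq2 and limma-voom each called 3. A neuronal marker, *Syt1*, was higher while the 3 other neuronal markers were not called. The median log2 fold change of the 4 was 0.13, with 1 below 0. Without Adar5G1 replicate 3 it was 0.02, with 2 below 0. The lysosomal mannosidase *LManII* was higher, and the 3 midgut markers listed with it were at 0 in every library. Testis markers summed to 0.517 to 1.48 CPM in Adar5G1 heads and 1.08 to 2.05 CPM in w1118 heads. None of the 4 glial, 4 muscle, 3 hemocyte and 1 testis markers tested was called by edgeR. At an unadjusted p below 0.05 there were 1 glial, 2 muscle and 1 hemocyte markers, DESeq2 called 1 hemocyte marker and limma-voom none. The part of these shifts in the values of the ribosomal protein genes was not tested.

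One library stood apart for the members. Adar5G1 replicate 3 held the lowest of the 6 values for 34 of 71 members, or 47.9%, against 20.4% of all genes tested. Summed over the 71 members, the libraries held 674, 667 and 588 CPM in Adar5G1 heads and 686, 670 and 701 CPM in w1118 heads. The means were 643 ± 47.8 CPM in Adar5G1 heads and 686 ± 15.5 CPM in w1118 heads (SD, n = 3 each), and only replicate 3 of the Adar5G1 group lay far from the other libraries. As a deviation of log2 CPM from each gene's mean over 6 libraries, the members' median was 0.03, 0.02 and -0.19 in Adar5G1 heads and 0.06, 0.03 and 0.08 in w1118 heads. Other gene groups were low there too. In Adar5G1 replicate 3 the median deviation was -0.21 for nuclear subunits of oxidative phosphorylation, -0.18 for cytoplasmic ribosomal proteins and -0.05 for the 4236 genes in the members' length range. The medians of the member groups are therefore also given without it below. This library was picked by the members' own low values, so a higher median over all members without it was bound to follow.

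**Figure D1:**
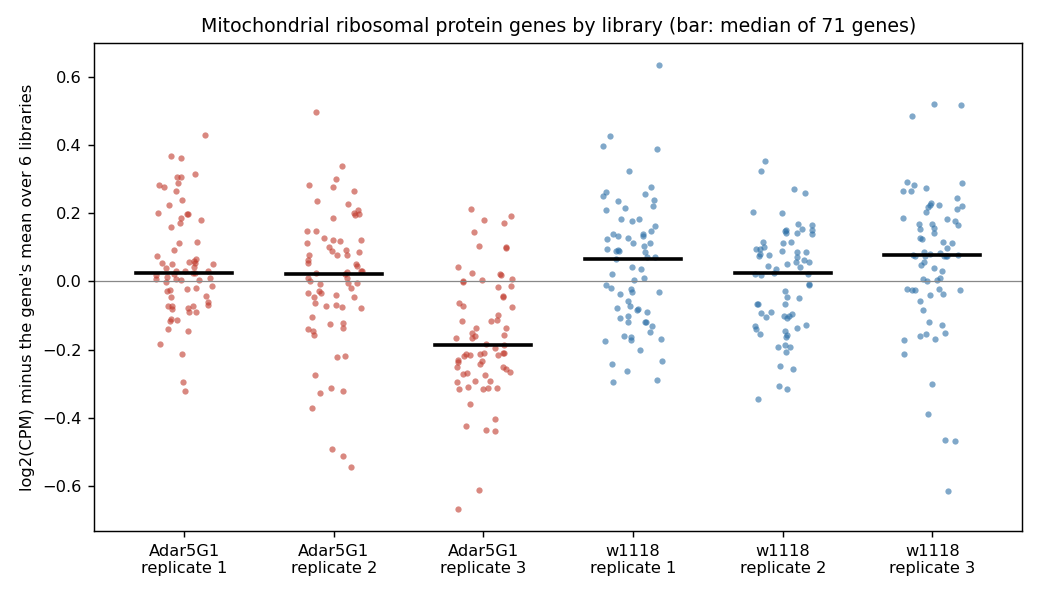
Each point is 1 of 71 mitochondrial ribosomal protein genes; the vertical axis is log2 CPM minus the gene's mean over 6 libraries, and black bars are medians. Adar5G1 replicate 3 has a median of -0.19, while the other libraries lie between 0.02 and 0.08.

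The members were expressed at moderate and similar levels. Per length (RPKM, CPM divided by kb of exon), member means over the 6 libraries ranged from 4.34 to 29.6 with a median of 9.58, beside a median of 9.37 over all genes tested. Their median was 9.73 RPKM in Adar5G1 heads and 9.27 RPKM in w1118 heads. The genes are short: the median exon length was 783 bp against 2055 bp over all genes tested, and the median number of exons was 2 against 4. Short length at a moderate level gave few counts, between 11 and 762 per member and library with a median of 97. Replicates varied with a median coefficient of variation of 12.2% in Adar5G1 heads and 10.03% in w1118 heads.

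At the top of the order of levels stood *mRpS9*, the counterpart of a bacterial small-subunit protein whose tail contacts the tRNA in the P site. Its level was 27.3 ± 1.72 RPKM in Adar5G1 heads and 31.9 ± 0.80 RPKM in w1118 heads. Next came *mRpL53*, a mitochondria-specific protein, with 24.5 ± 1.35 RPKM in Adar5G1 heads and 28.1 ± 0.70 RPKM in w1118 heads. It shares exon sequence on its strand with CG33155, and a fragment over both was counted for each, so its level may be too high. *mRpL28*, with a bacterial counterpart, had 22.9 ± 1.92 RPKM in Adar5G1 heads and 26.6 ± 2.24 RPKM in w1118 heads. *mRpS33*, a protein of the small-subunit head, had 22.6 ± 2.47 RPKM in Adar5G1 heads and 21.3 ± 2.24 RPKM in w1118 heads. Among these 4, the libraries of neighbours in the order overlapped in Adar5G1 heads. In w1118 heads *mRpS9* lay above *mRpL53* and *mRpL28* above *mRpS33* without overlap, while *mRpL53* and *mRpL28* overlapped. At the bottom stood *mRpS18B*, with 4.10 ± 0.98 RPKM in Adar5G1 heads and 4.58 ± 0.29 RPKM in w1118 heads. *mRpL32*, near the exit of the peptide tunnel, had 5.19 ± 0.77 RPKM in Adar5G1 heads and 5.08 ± 0.32 RPKM in w1118 heads. *mRpL21*, with a bacterial counterpart, had 6.27 ± 1.2997 RPKM in Adar5G1 heads and 5.76 ± 0.72 RPKM in w1118 heads. Neighbours among these 3 overlapped in Adar5G1 heads, and in w1118 heads all libraries put *mRpS18B* below *mRpL32*.

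Adar5G1 and w1118 heads were then compared gene by gene, with edgeR's quasi-likelihood test and Benjamini-Hochberg adjustment over all 10201 genes. Of the 71 members, 1 was higher in Adar5G1 heads, none was lower and 70 were not called at an adjusted p of 0.05. Over all genes tested 900 were higher (8.82%) and 523 were lower (5.13%). Upper-quartile scaling gave 812 genes higher and 764 lower, and scaling by total counts alone gave 582 higher and 209 lower. In the members' range of mean CPM, 2.43 to 38.3, 13.5% of 5572 genes were called in either direction. At an unadjusted p below 0.05 there were 7 members, 2 higher and 5 lower, against 26.4% of all genes. DESeq2 and limma-voom each called 1 member higher and 1 lower. Groups did not overlap for 4 members with all Adar5G1 values above all w1118 values, against 17.1% of all genes, and for 11 members with all Adar5G1 values below, against 14.4%. The other 56 overlapped.

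Log2 fold changes of the members were small. Their median was -0.10 with quartiles of -0.23 and 0.07, and 44 of 71 lay below 0 and 27 above. Over all genes tested the median was -0.00 and the quartiles were -0.15 and 0.19. From the 5th to the 95th percentile the members spanned -0.35 to 0.27 and all genes -0.58 to 1.01. Without Adar5G1 replicate 3 the members' median was -0.03, with 41 below 0 and 30 above. It was -0.13 without Adar5G1 replicate 1, with 51 below 0, and -0.14 without Adar5G1 replicate 2, with 47 below 0. Without both libraries numbered 3, a setting added after the values were seen, it was -0.01, with 37 below 0 and 34 above. Genes in the members' length range moved as well. Their median was 0.005 with all libraries, 0.042 without Adar5G1 replicate 3 and 0.065 without both libraries numbered 3, so the members stayed below them. The precision behind these estimates can be stated as intervals. Estimates of 69 members lay within 1.5-fold and all 71 within 2-fold. The 95% interval lay within 1.5-fold for 49 members and within 2-fold for 70, and its half-width had a median of 0.33 on the log2 scale. Of all genes tested, 58.0% had an interval within 1.5-fold and 80.7% within 2-fold. Estimates reached 1.5-fold or more for 14.6% of all genes and 2-fold or more for 7.18%. These intervals are not adjusted for the number of genes tested.

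**Figure D2:**
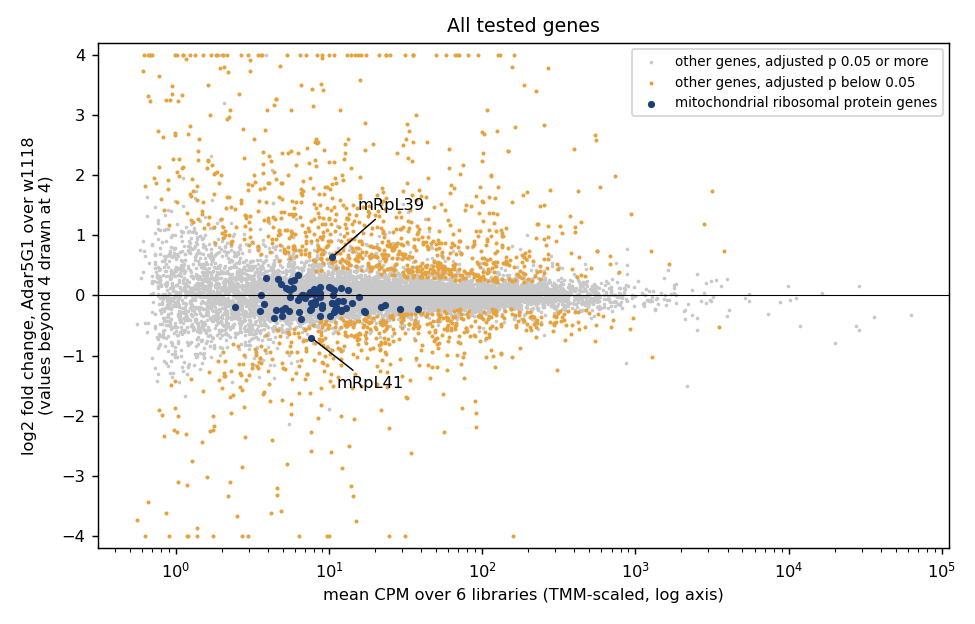
Each point is 1 of 10201 genes tested; the horizontal axis is mean CPM over 6 libraries on a log scale and the vertical axis is the log2 fold change of Adar5G1 over w1118. The 71 members (dark blue) lie between -0.70 and 0.63, with *mRpL39* highest and *mRpL41* lowest.

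The member that rose was *mRpL39* (FBgn0036462), on the minus strand of chromosome 3L from 14991081 to 14992766 in dm3, with 5 exons and 1137 bp of exon. It encodes a protein of the large subunit without a bacterial ribosomal counterpart, related in sequence to threonyl-tRNA synthetase. Its values were 12.6, 14.3 and 11.4 CPM in Adar5G1 heads and 8.83, 8.21 and 7.34 CPM in w1118 heads. All 3 Adar5G1 libraries exceeded all 3 w1118 libraries, from 68 to 239 counts per library. The log2 fold change was 0.63 (SE 0.13, 95% interval 0.33 to 0.94), a fold of 1.55, with an adjusted p of 0.0145 in edgeR. The call held in 18 of 19 alternative settings and was lost with total counts only (adjusted p 0.237, log2 fold change 0.64). *Prosbeta2*, a proteasome subunit gene that starts 285 bp from *mRpL39* on the opposite strand, was not called, with a log2 fold change of 0.17 (adjusted p 0.472 in edgeR).

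The largest negative estimate was that of *mRpL41* (FBgn0034001), a single-exon gene of chromosome 2R. It encodes a mitochondria-specific protein of the large subunit. Its values were 7.54, 5.02 and 4.79 CPM in Adar5G1 heads and 9.64, 8.43 and 10.48 CPM in w1118 heads. The groups did not overlap, and replicate 1 was the highest of the Adar5G1 libraries. The log2 fold change was -0.70 (SE 0.20, 95% interval -1.15 to -0.25), and the adjusted p of 0.0504 in edgeR just missed the threshold. DESeq2 (adjusted p 0.0421), limma-voom (0.0450) and 6 other settings put it below the threshold. Leaving out Adar5G1 replicate 1 gave -0.95 (adjusted p 0.0148), and leaving out Adar5G1 replicate 3 gave -0.54 (adjusted p 0.129). Over all 19 alternatives the adjusted p ranged from 0.0148 to 0.230.

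**Figure D3:**
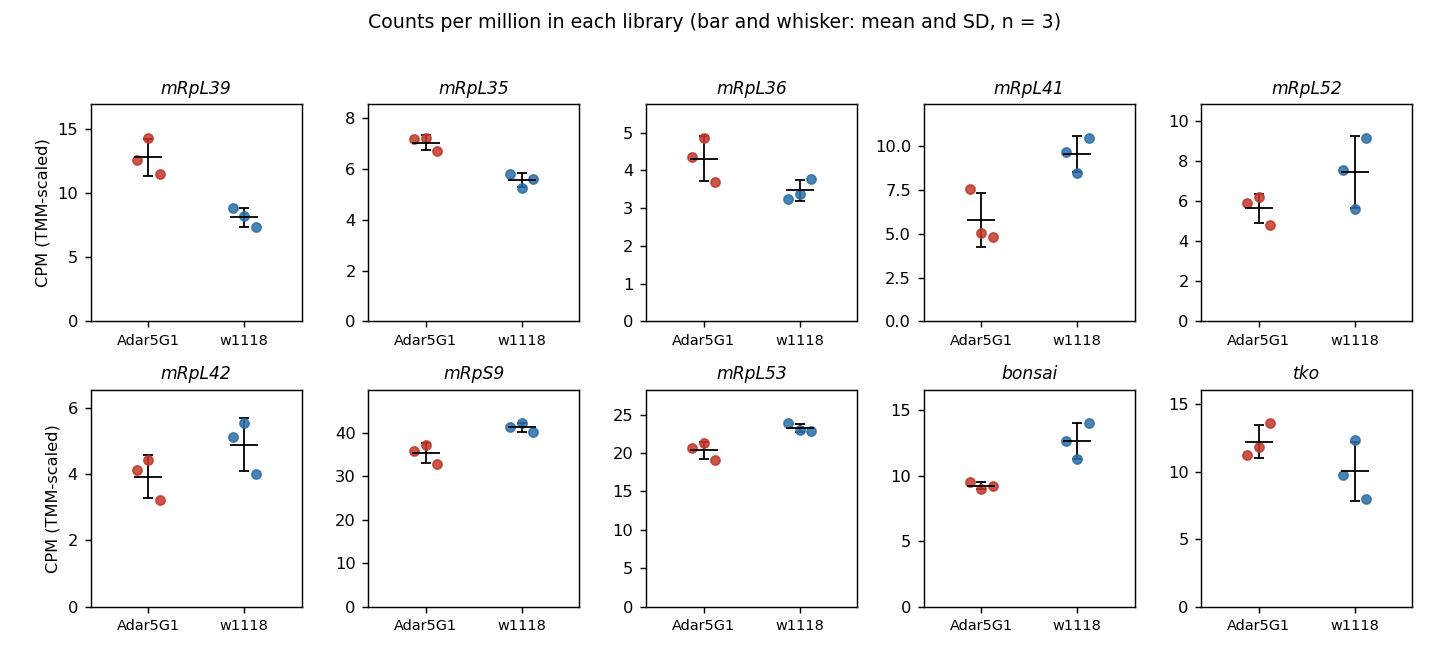
CPM in each library (points), with mean and SD (bar and whiskers, n = 3), Adar5G1 left and w1118 right; each panel has its own axis from 0. The groups do not overlap for *mRpL39* and *mRpL35* (Adar5G1 above) nor for *mRpL41*, *mRpS9*, *mRpL53* and *bonsai* (Adar5G1 below).

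By place in the ribosome, the stalks come first, the flexible arms that bind translation factors and guide tRNA out. None of the 4 stalk members was called by edgeR, all 4 estimates were below 0 and their median was -0.23. The median was -0.11 without Adar5G1 replicate 3, with 3 of 4 below 0. *mRpL1* had 11.7, 10.8 and 10.2 CPM in Adar5G1 heads and 13.1, 12.6 and 13.1 CPM in w1118 heads. The groups did not overlap, with a log2 fold change of -0.25 (adjusted p 0.184 in edgeR). *mRpL12*, whose mammalian counterpart also binds the mitochondrial RNA polymerase, had 8.72, 11.8 and 9.77 CPM in Adar5G1 heads and 11.6, 11.4 and 12.5 CPM in w1118 heads. *mRpL10*, which anchors L12, and *mRpL11* had estimates of -0.10 and -0.21.

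Around the peptidyl transferase centre, where peptide bonds form, the median of the 4 members was 0.09, or 0.19 without Adar5G1 replicate 3, and none was called by edgeR. The estimates were 0.13 for *mRpL2*, 0.12 for *mRpL3*, 0.06 for *mRpL27* and -0.21 for *mRpL16*, and the groups overlapped for each. At the tunnel exit, where the nascent chain leaves, the 7 members had a median of -0.13, or -0.07 without that library, and none was called by edgeR. *mRpL24* had 17.1, 16.8 and 12.6 CPM in Adar5G1 heads and 19.6, 19.0 and 17.3 CPM in w1118 heads, without overlap and with the lowest value in Adar5G1 replicate 3. Its log2 fold change was -0.28 with that library and -0.13 without it. *mRpL45*, whose mammalian counterpart tethers the ribosome to the inner membrane, had an estimate of -0.26 and overlapping groups. In the central protuberance, the crown of the large subunit, the 5 members had a median of 0.01, or 0.00 without that library, and estimates from -0.24 for *mRpL40* to 0.14 for *mRpL48*.

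The 14 other large-subunit members with a bacterial counterpart had a median of -0.09, or 0.01 without Adar5G1 replicate 3, and none was called by edgeR. *mRpL35* had 7.17, 7.23 and 6.70 CPM in Adar5G1 heads and 5.81, 5.27 and 5.62 CPM in w1118 heads. Its groups did not overlap, and the log2 fold change was 0.34 (SE 0.13, adjusted p 0.140 in edgeR). *mRpL36*, the counterpart of the smallest bacterial ribosomal protein, had 4.36, 4.87 and 3.69 CPM in Adar5G1 heads and 3.25, 3.38 and 3.78 CPM in w1118 heads. Its groups overlapped, with an estimate of 0.28 (adjusted p 0.391 in edgeR). *mRpL33* was the other member of this set with all Adar5G1 values above, at 0.28 (adjusted p 0.305 in edgeR). In the other direction stood *mRpL13*, with 8.28, 7.82 and 6.94 CPM in Adar5G1 heads and 9.76, 9.32 and 10.04 CPM in w1118 heads, and an estimate of -0.34 (adjusted p 0.112 in edgeR). *mRpL13* shares exon sequence on its strand with CG10602, so part of its counts may belong to that gene. *mRpL4* and *mRpL28* also had all Adar5G1 values below, with estimates of -0.26 and -0.22. *mRpL34*, the shortest member by exon length, had as few as 11 counts in a library, and its interval ran from -0.95 to 0.56.

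The 15 remaining large-subunit members, nearly all without a bacterial counterpart, included both *mRpL39* and *mRpL41*. Their median was -0.20, with 11 below 0 and 4 above, and -0.15 without Adar5G1 replicate 3. *mRpL52* had 5.91, 6.20 and 4.84 CPM in Adar5G1 heads and 7.55, 5.60 and 9.18 CPM in w1118 heads. *mRpL42*, another mitochondria-specific protein, had 4.14, 4.43 and 3.21 CPM in Adar5G1 heads and 5.11, 5.55 and 3.996 CPM in w1118 heads. Both overlapped between the groups, with log2 fold changes of -0.39 (adjusted p 0.281) and -0.37 (adjusted p 0.304) in edgeR, and -0.27 and -0.22 without Adar5G1 replicate 3. *mRpL53*, with 20.7, 21.3 and 19.1 CPM in Adar5G1 heads and 23.9, 22.96 and 22.9 CPM in w1118 heads, did not overlap, and its estimate was -0.20 (adjusted p 0.205 in edgeR).

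In the head of the small subunit, which holds the tRNA anticodon from above, the 8 members had a median of -0.07, or -0.05 without Adar5G1 replicate 3, and none was called by edgeR. *mRpS29*, the counterpart of the mammalian GTP-binding protein DAP3, had 9.09, 9.01 and 8.67 CPM in Adar5G1 heads and 10.6, 11.1 and 12.3 CPM in w1118 heads. *mRpS9* had 35.8, 37.2 and 32.8 CPM in Adar5G1 heads and 41.2, 42.3 and 40.2 CPM in w1118 heads. Neither overlapped between the groups, and the log2 fold changes were -0.35 (adjusted p 0.0811) for *mRpS29* and -0.23 (adjusted p 0.102) for *mRpS9* in edgeR. With upper-quartile scaling both were called lower, beside *mRpL41*. That scaling also moved the median over all genes tested to -0.06, from -0.00 in the main fit. *mRpS14* had an estimate of 0.26 with overlapping groups, and shares exon sequence on its strand with CG32533. In the body and platform, which carry the decoding site and the mRNA path, the 14 members had a median of -0.07, or -0.03 without that library, and none was called by edgeR. The estimates ran from -0.34 for *mRpS23* to 0.24 for *mRpS24*, which were -0.08 and 0.43 without that library. *mRpS24* was counted in this set, although its bacterial counterpart lies in the head. The medians of the head and of the body and platform were not recomputed with it moved.

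**Figure D4:**
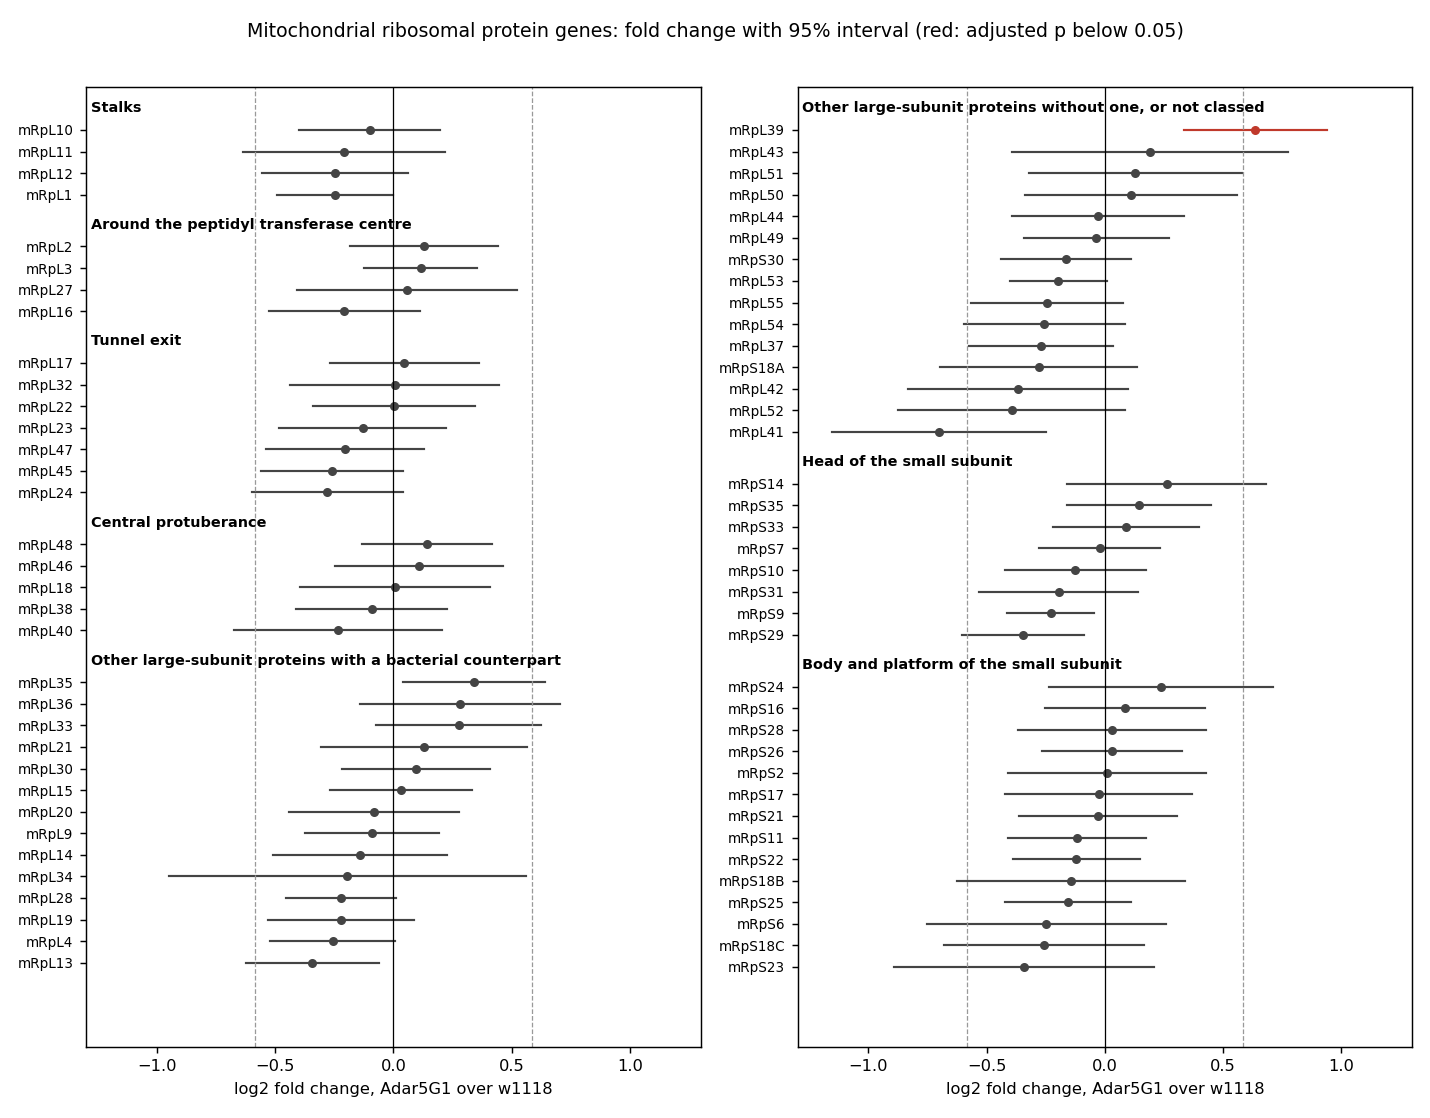
Log2 fold change of Adar5G1 over w1118 for the 71 members by place in the ribosome, with *mRpS24* drawn in the body and platform. Points are estimates, lines 95% intervals, and dashed lines mark 1.5-fold. The interval of *mRpL39* (red, 0.33 to 0.94) is that of the 1 member called; those of most other members include 0.

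Medians differed little by subunit and by origin. The median was -0.10 over 49 large-subunit and -0.07 over 22 small-subunit members, and -0.14 over 26 mitochondria-specific members and -0.08 over 41 with a bacterial counterpart. Without Adar5G1 replicate 3 these medians were -0.04 over large-subunit and -0.03 over small-subunit members, and -0.04 over mitochondria-specific members and -0.03 over those with a bacterial counterpart. The summed CPM of the small subunit was 208, 207 and 183 in Adar5G1 heads and 212, 208 and 213 in w1118 heads. That of the large subunit was 467, 460 and 405 in Adar5G1 heads and 474, 463 and 488 in w1118 heads. In both subunits only Adar5G1 replicate 3 lay apart.

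By chromosome arm, 17 of 21 members on 3R lay below 0 (81.0%), with a median of -0.20, beside 52.2% of all genes tested on that arm. It was 16 of 21 without Adar5G1 replicate 3, with a median of -0.09. The median was also -0.20 on 2R, where 8 of 12 members lay below 0 (66.7%), beside 49.9% of all genes tested there. Without that library it was -0.16 on 2R, with 9 of 12 below 0. On 2L 8 of 12 members lay below 0 (66.7%), with a median of -0.12, beside 49.8% of all genes tested there. Without that library 7 of 12 did, with a median of -0.03. On 3L 5 of 15 members lay below 0 (33.3%), with a median of 0.05, beside 49.6% of all genes tested there, and without that library it was 4 of 15, with a median of 0.08. These counts were not tested. The 11 X-linked members had a median of -0.04, beside -0.12 over 60 autosomal members, and none was called by edgeR. Without Adar5G1 replicate 3 the medians were 0.00 over the X-linked and -0.05 over the autosomal members. The X-linked members nearest *Adar* were *mRpL16*, at 102 kb, with a log2 fold change of -0.21 (adjusted p 0.408 in edgeR), and *mRpL14*, at 556 kb, with -0.14 (adjusted p 0.645 in edgeR). Near *Adar* the mutation and the chromosome it lies on cannot be told apart.

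A pair of further genes encodes proteins of this ribosome under other symbols. *bonsai*, for the small-subunit protein S15, fell: it had 9.53, 9.01 and 9.19 CPM in Adar5G1 heads and 12.7, 11.3 and 14.04 CPM in w1118 heads. Its groups did not overlap, and the log2 fold change was -0.44 (SE 0.12, adjusted p 0.0446 in edgeR). That call was lost in 11 of 19 alternatives, among them DESeq2 (adjusted p 0.132), limma-voom (0.0569) and the fit without Adar5G1 replicate 3 (0.0900), over a range of 0.0219 to 0.734. Leaving out any 1 library other than w1118 replicate 2 ended it, with adjusted p between 0.0900 and 0.121. *tko*, for the decoding-site protein S12, is the classic locus of bang sensitivity in flies. It had 11.2, 11.8 and 13.6 CPM in Adar5G1 heads and 9.76, 12.3 and 7.99 CPM in w1118 heads, with overlap, and its estimate was 0.27 (adjusted p 0.369 in edgeR).

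The RNAs of the mitochondrial ribosome were also counted. The protocol states depletion of ribosomal RNA while the labels give polyA RNA, so the levels of these RNAs depend on how RNA was selected. The large rRNA, *mt:lrRNA*, had 30009, 25140 and 36344 CPM in Adar5G1 heads and 28746, 29035 and 24548 CPM in w1118 heads. The small rRNA, *mt:srRNA*, had 11666, 10575 and 10719 CPM in Adar5G1 heads and 11985, 10916 and 11166 CPM in w1118 heads. Neither was called by edgeR (adjusted p 0.702 and 0.877).

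Other genes of mitochondrial translation were set beside the members. None of 9 translation factors passed the test in edgeR, with a median of -0.05. At an unadjusted p below 0.05 there were 2, and DESeq2 and limma-voom called none. *mEFTu1*, the elongation factor that delivers aminoacyl-tRNA, had 37.9 ± 6.29 CPM in Adar5G1 heads and 40.8 ± 3.09 CPM in w1118 heads. None of 21 genes for mitochondrial aminoacyl-tRNA synthetases and the amidotransferase passed, with a median of -0.12. There too 2 had an unadjusted p below 0.05, and DESeq2 and limma-voom called none. The most abundant of them, *AspRS-m*, had 53.8 ± 1.46 CPM in Adar5G1 heads and 62.2 ± 5.46 CPM in w1118 heads (SD, n = 3 each).

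Among 18 genes for replication, transcription and RNA processing in mitochondria, 16 lay below 0 and the median was -0.22. Without Adar5G1 replicate 3, 14 lay below 0 and the median was -0.17. Of the 18, 1 passed the test. That gene was *scu*, which encodes a hydroxysteroid dehydrogenase that is also a subunit of mitochondrial RNase P, and it rose. It had 55.2, 83.7 and 41.5 CPM in Adar5G1 heads and 15.9, 15.6 and 21.3 CPM in w1118 heads, a log2 fold change of 1.76 (SE 0.25, adjusted p 0.00281 in edgeR), and the call held in all 19 alternatives. *scu* is X-linked. *PolG2* of this list and *GatC* of the synthetase list had identical counts in every library, so they are 1 measurement.

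Of 12 import and quality control genes 2 rose, *Phb2* of the prohibitin ring (0.29, adjusted p 0.0399 in edgeR) and *ClpX* of the matrix protease (0.26, adjusted p 0.0468 in edgeR). Each lost the call in 11 of 19 alternatives, DESeq2 included, and whenever any 1 library except Adar5G1 replicate 3 was left out (adjusted p 0.0644 to 0.195). *ClpX* shares exon sequence on its strand with *Surf6*, so part of its counts may belong to that gene. None of 8 regulators of nuclear genes for mitochondria passed the test in edgeR. There were 2 at an unadjusted p below 0.05, and DESeq2 and limma-voom called none.

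For scale, the cytoplasmic ribosomal proteins had a median of 0.11 over 77 genes with 65 above 0, and none was called by edgeR, with 4 at an unadjusted p below 0.05 and none in DESeq2 or limma-voom. Of 71 nuclear subunits of oxidative phosphorylation, 1 fell, *ND-51L1* (-0.55, adjusted p 0.0480 in edgeR), 60 lay below 0 and the median was -0.08. Without Adar5G1 replicate 3 the medians were 0.22 with 3 of 77 below 0 for the cytoplasmic proteins, and -0.00 with 37 of 71 below 0 for the subunits of oxidative phosphorylation. *ND-51L1* lost the call in 13 of 19 alternatives, among them each that left out 1 library (adjusted p 0.0523 to 0.181). Its mean level was low, at 4.77 CPM in Adar5G1 heads and 6.98 CPM in w1118 heads. *ND-51* had 190 CPM in Adar5G1 heads and 205 CPM in w1118 heads, with -0.11 (adjusted p 0.411 in edgeR). Of 10 mitochondrially encoded genes tested, 9 lay above 0 and 2 rose, with a median of 0.29. *mt:ND5*, a subunit of complex I, had 336, 290 and 298 CPM in Adar5G1 heads and 241, 200 and 234 CPM in w1118 heads (log2 fold change 0.46, adjusted p 0.0143 in edgeR). The call for *mt:ND5* held in 17 of 19 alternatives and was lost without Adar5G1 replicate 1 (adjusted p 0.0596), and that for *mt:tRNA:Leu-TAA*, at under 2 CPM, was lost in 9 of the 17 that tested it.

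**Figure D5:**
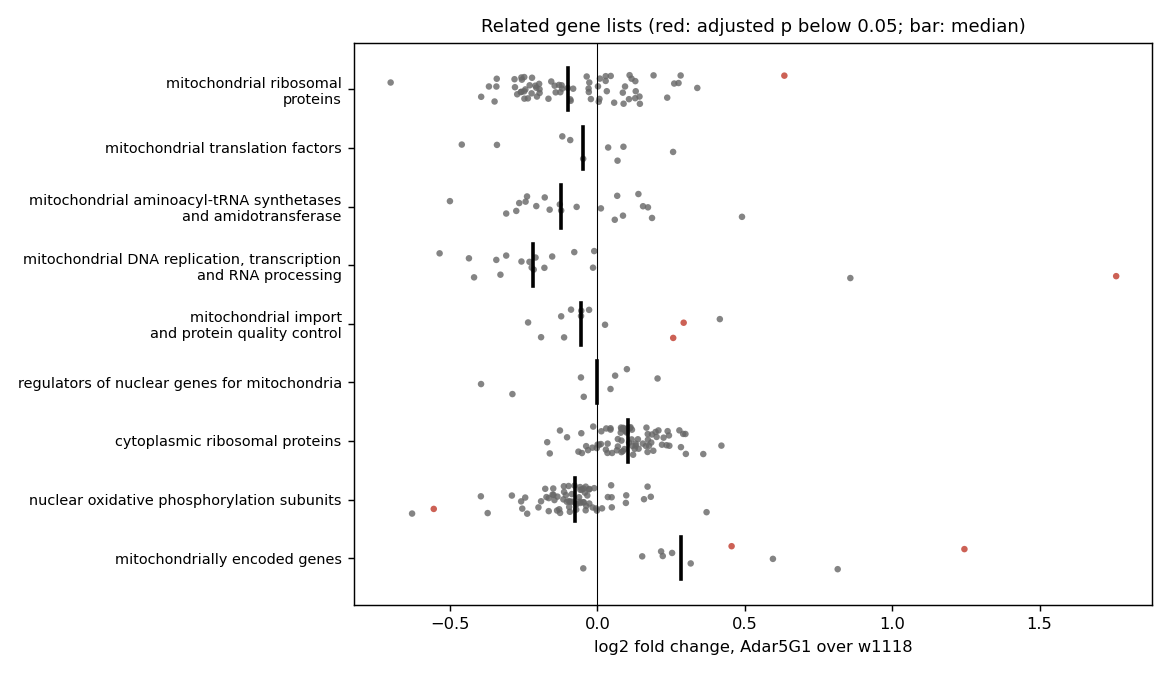
Log2 fold change of Adar5G1 over w1118 for each tested gene of the members' list and 8 related lists; black bars are list medians and red points passed an adjusted p of 0.05. The medians run from -0.22 (replication, transcription and RNA processing) to 0.29 (mitochondrially encoded), with -0.10 for the 71 members.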

How the data were processed

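Each deposited file holds raw counts of fragments for 1 library. The authors counted paired-end fragments, per the file headers, with featureCounts 1.4.5-p1, reverse-stranded, over exons of FlyBase annotation release 5.53, counting a fragment for every gene it overlaps. Per the submitters' processing notes, TopHat and dm3 were used (TopHat version not given in the sources used here). The labels give polyA RNA, and their protocol states depletion of ribosomal RNA. The row without a gene ID, 0.369% to 0.633% of counts, was left out. Symbols were matched by ID for 15924 of 16641 rows, and 717 had none.

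Counts were tested in R 4.3.3 with edgeR 4.0.16 (filterByExpr at its default of 10 counts, TMM factors, quasi-likelihood test on group) and adjusted over all 10201 genes tested. CPM and RPKM are TMM-scaled, with exon lengths from the files. DESeq2 1.42.0 and limma 3.58.1 were among 19 alternatives, of which leaving out both libraries numbered 3 was added after the values were seen. Scripts were tested on simulated data. Within groups, libraries differed beyond sampling noise. The labels do not tie same-numbered libraries, so the main fit has no block.

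The members, gene lists and place in the ribosome were chosen with earlier results of these data known. Members named by rule were those past the threshold, the 3 largest changes each way, the 4 highest and 3 lowest levels. The rule also named *tko*, *bonsai*, *Adar* and the leading genes of each list. Others, such as *mRpS29*, *mRpL1*, *mRpL13* and the rRNAs, were named after their values were seen. Of the alternatives, the counting filter, the scaling, the test, depth, the block and the libraries left out are given at the end.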

Additional observations from a re-analysis of the deposited data

How the results depend on the processing

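The members' median log2 fold change stayed below 0 in all 19 alternatives. It ran from -0.16 with upper-quartile scaling to -0.01 without both libraries numbered 3, and from -0.14 to -0.03 when 1 library was left out. With upper-quartile scaling the median was -0.059 over all genes tested and -0.053 over genes in the members' length range. Without both libraries numbered 3 these were 0.004 and 0.065. Members higher numbered 1 in every alternative except total counts only, where there were 0. Members lower numbered 1 with DESeq2, RLE scaling, limma-voom, no filter, robust dispersion and without non-coding rows, 3 with upper-quartile scaling, and 0 to 1 when 1 library was left out; the 1 was *mRpL41*. Over all genes, total counts only gave 582 higher and 209 lower, and leaving out 1 library gave 545 to 1024 higher and 331 to 515 lower, fewest without w1118 replicate 1.

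Same-numbered libraries of the 2 groups correlated at 0.091, -0.171 and -0.27. With 3 libraries per group these values cannot decide whether libraries were prepared in numbered pairs, and the labels do not say. The replicate block gave 484 genes higher and 278 lower, 1 member higher and 0 lower.

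Some estimates changed sign. With thinned counts *mRpS18B* was 0.0990 and *mRpL21* -0.0903. *mRpL32* was -0.0341 with limma-voom and -0.0541 with upper-quartile scaling. Leaving out 1 library gave -0.0706 to 0.1393 for *mRpL32*, -0.0013 to 0.1817 for *mRpS33*, -0.0368 to 0.2229 for *mRpL21*, -0.2214 to 0.0118 for *mEFTu1* and -0.0929 to 0.0661 for *RpL5*. Without both libraries numbered 3, *mRpS18B* was 0.0118, *mEFTu1* 0.0465, *RpL5* 0.1164 and *Ppn*, at -0.39 with all libraries, 0.0814. The cause was not tested. A typical member's 95% interval reached 0.33 to each side on the log2 scale, and the parts of counting error and of spread between libraries in it were not separated.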

Other observations

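Many members lie close to another gene. An opposite-strand gene starts within 500 bp of 52 of 71 members (73.2%), against 32.6% of genes tested, and 39 members (54.9%) overlap an exon on the opposite strand, against 29.5%. Of the partners that start nearby, 48 were tested, and edgeR called none. At an unadjusted p below 0.05 there were 6, and DESeq2 and limma-voom each called 1. The partners' median log2 fold change was 0.01, beside -0.10 for the members. The DESeq2 and limma-voom call was *norpA*, the phospholipase C of phototransduction and a photoreceptor marker, which starts 395 bp from *mRpL33*. It had 1900 ± 22.9 CPM in Adar5G1 heads and 2277 ± 94.2 CPM in w1118 heads (SD, n = 3 each), a log2 fold change of -0.26 (adjusted p 0.106 in edgeR). *mRpL33* itself had an estimate of 0.28. The partner of *mRpL46*, CG2021, had 4.50 ± 1.49 CPM in Adar5G1 heads and 2.46 ± 0.355 CPM in w1118 heads, with 0.78 (adjusted p 0.0971 in edgeR), while *mRpL46* had an estimate of 0.11.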
